A study of Mus musculus with 16 samples.

Results

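Ventricular gene expression in mice fed the mNIA formula was compared with that in mice fed chow. The members were the 4 libraries titled mNIA and the 4 titled Chow, 8 of the 16 libraries of the series, and they were chosen by title alone. All animals were male C57BL/6 mice put on their diet at 6 weeks of age and kept on it for 6 months, and each library came from 1 animal. Chow was the laboratory diet Prolab IsoPro. The mNIA diet was the NIA primate formula altered to hold the sucrose and fat of the UW primate formula, and the other 8 libraries came from mice fed the unaltered NIA or UW formula. RNA was taken from the lower part of the ventricles, so every value is a mean over cardiomyocytes, fibroblasts, vessels and blood-borne cells. Library codes in the count table do not spell the diets: mNIA libraries carry the code UC, UW libraries NC, NIA libraries MNC and chow libraries CC. The letters of the 3 formula codes can be read as another assignment of the formulas than the titles give. The files do not settle which is right, so mNIA below means the libraries titled mNIA, which could have been fed another of the 3 formulas, while chow reads alike in both places.

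The question behind the comparison is how diet bears on ageing and fibrosis of the heart. Cardiomyocytes fill most of the volume of the ventricle and burn mainly fatty acids, while fibroblasts lay down the collagen matrix. Resident macrophages are seeded early in life and largely renew themselves, whereas CCR2-bearing macrophages are replaced from blood monocytes. Antigen-presenting cells among them carry MHC class II, a pair of chains that hold peptides from engulfed proteins for CD4 T cells. The transactivator CIITA switches these genes on through factors bound to the X and Y boxes of their promoters.

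Total counts ran from 4263778 to 5953925 in chow and from 3870426 to 6544134 in mNIA. Cardiomyocyte genes led the counts, with Tnnt2, cardiac troponin T, between 7637 and 16353 CPM (counts scaled to a common library size, here by the TMM method). Myl7, an atrial light chain, lay at or below 1.27 CPM in every library, and the adipocyte hormone Adipoq at or below 0.535 CPM. Chow 3 and mNIA 2 stood apart from the other libraries. The first principal component of log2 CPM held 60.0% of the variance and placed chow 3 at 71.4 and mNIA 2 at 38.0, with the other 6 libraries between -34.8 and 3.16. The same libraries had the lowest quality weights, 0.177 and 0.276 against 0.897 or more elsewhere. Both were low in the fatty acid oxidation and citric acid cycle lists and high in endothelial, blood and interferon lists, and each diet held 1 of them. They differed in respiratory complex I genes, whose median centred log2 CPM was 0.05 in chow 3 and 0.33 in mNIA 2, the highest of the 8 libraries. Results are therefore given with all 8 libraries and again with these 2 left out, which leaves 3 against 3 and removes the widest within-diet spread by construction.

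**Figure D1:**
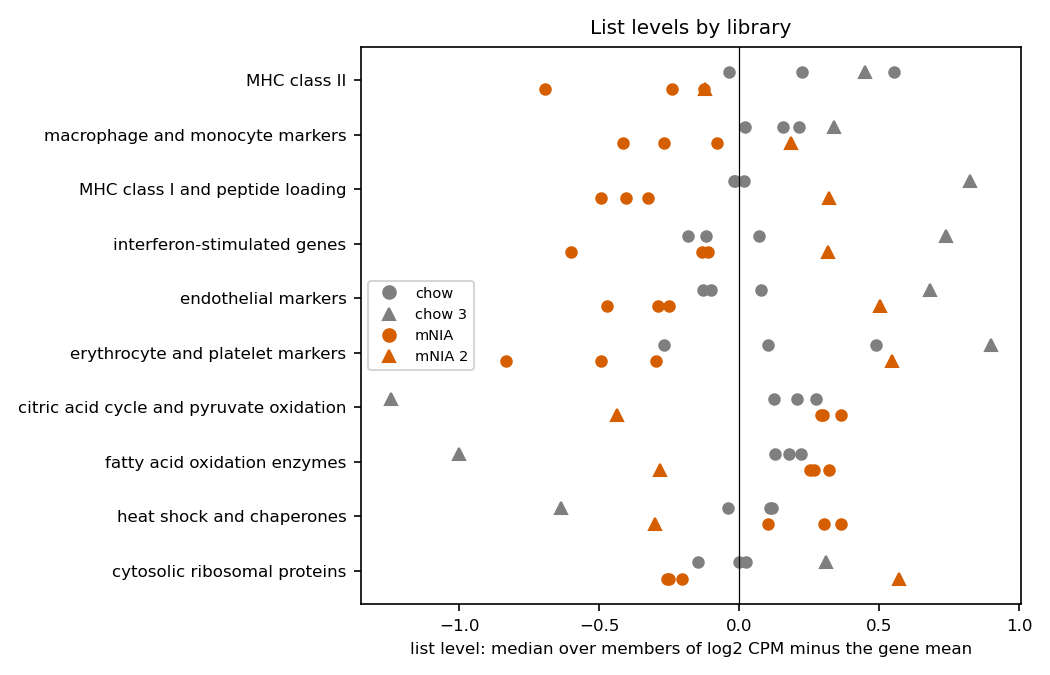
Level of 10 gene lists in each of the 8 libraries, where each gene was centred on its mean log2 CPM over the libraries and the middle value of the list's members is plotted. Triangles mark chow 3 and mNIA 2, which lie apart from the other 6 in the citric acid cycle list (-1.24 and -0.44) and in the endothelial list (0.68 and 0.50), while the 4 chow libraries lie above the 4 mNIA libraries in the MHC class II list.

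No gene passed an adjusted p of 0.05 among the 12852 tested (0%). The smallest adjusted p by edgeR's quasi-likelihood test was 0.911, so every difference below is a description that missed the threshold unless stated otherwise. Unadjusted p was under 0.05 for 322 genes, 2.51% of those tested, with 101 higher in mNIA (0.786%) and 221 lower (1.72%). The libraries of the 2 diets did not overlap for 276 genes (2.15%), of which 88 were higher in mNIA (0.685%) and 188 lower (1.46%). The balance of directions moved with the scaling: 124 of 301 genes at an unadjusted p under 0.05 were higher with RLE factors and 71 of 346 with upper-quartile factors. The median standard error (SE) of a log2 fold change was 0.24, and the common biological coefficient of variation was 0.253. Without chow 3 and mNIA 2 that coefficient was 0.136 and the smallest adjusted p was 0.0753, again with 0 genes past 0.05. In that smaller fit 1132 genes (8.77%) were higher and 1026 (7.95%) lower at an unadjusted p under 0.05. DESeq2 also called 0 genes on the 8 libraries, with 338 genes at an unadjusted p under 0.05.

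MHC class II genes lay lower in mNIA as a group. The means of all 7 tested members of the 10 listed were lower in mNIA, where 50.6% of all tested genes had a lower mean, and 4 of the 7 had no overlap between diets (lower side, 1.46% of all genes). Their median log2 fold change was -0.60, against -0.004 for all tested genes, and -0.64 without chow 3 and mNIA 2. It stayed between -0.70 and -0.48 when each library was left out in turn.

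H2-Ab1, the beta chain of the I-A molecule (chromosome 17, 34263227 to 34269419, mm10), stood at 36.2, 48.4, 45.1 and 34.6 CPM in chow and at 28.6, 29.0, 27.3 and 22.2 in mNIA. Every mNIA library lay below every chow library, and the 2 libraries that stood apart were not extreme within their diets. The means were 41.1 ± 6.73 (SD, n = 4) and 26.8 ± 3.14 CPM, a log2 fold change of -0.62 ± 0.17 (SE) with a 95% interval of -0.99 to -0.25. H2-Eb1, the beta chain of I-E, stood at 53.2, 62.7, 52.7 and 41.6 CPM in chow and at 35.6, 33.5, 39.7 and 23.5 in mNIA, a log2 fold change of -0.67 ± 0.20. Chow 4 and mNIA 3 came closest to each other, and the diets did not overlap. H2-Aa, the alpha chain of I-A, stood at 57.5, 79.2, 61.6 and 47.3 CPM in chow and at 45.1, 45.0, 42.0 and 30.3 in mNIA, with a log2 fold change of -0.60 ± 0.20. Cd74, the invariant chain that blocks the peptide groove until the molecule reaches the endosome, stood at 137, 160, 161 and 112 CPM in chow and at 100, 106, 104 and 70.4 in mNIA. Its log2 fold change was -0.58 ± 0.20, and mNIA 4 was the lowest library for all 4 of these genes. 

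The peptide-loading chaperone H2-DMb1 was lower in mean (-0.94 ± 0.33) but overlapped, since chow 4 at 3.39 CPM lay below mNIA 1 at 3.53 and mNIA 2 at 4.00. Its partner H2-DMa had a log2 fold change of -0.36 ± 0.25, also with overlap. Ciita, the transactivator itself, stood at 2.46, 4.37, 5.96 and 2.50 CPM in chow and at 3.24, 5.51, 2.54 and 3.17 in mNIA. The highest Ciita library of each diet was the one that stood apart, and the log2 fold change was -0.10 ± 0.37 with a 95% interval of -0.93 to 0.72, which holds the values of the chains. Ifi30, a lysosomal thiol reductase that unfolds antigens for class II loading, stood at 8.40, 8.24, 9.94 and 9.45 CPM in chow and at 5.60, 6.51, 5.24 and 6.50 in mNIA. Those libraries did not overlap, and the log2 fold change was -0.59 ± 0.19.

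Promoter stretches of the class II genes are shown because these members lay lower together and share known elements. RefSeq windows on GRCm38.p6 (250 bases before to 50 after a start) were used for 4 of the 7 tested genes. H2-Ab1 and Ciita had no window in the set at hand, and Cd74 was left out by a filter on chromosome. For 3 of the 4 genes 160 bases follow, 5′ to 3′ on the gene's strand, chosen because they hold matches. The fourth gene, H2-DMa, has 2 windows with neither X box pattern nor long Y box, and its single Y box core lies at -198 from the start site of the second. Capitals mark the Y box core ATTGG, or CCAAT where it lies on the other strand, its longer form CTGATTGG, and the X box pattern, which is AGNAAC followed after any 3 bases by TG. 
H2-Eb1: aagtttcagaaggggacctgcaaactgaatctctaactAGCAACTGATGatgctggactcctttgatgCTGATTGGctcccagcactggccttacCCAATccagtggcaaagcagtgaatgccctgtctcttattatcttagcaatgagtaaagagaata
H2-DMb1: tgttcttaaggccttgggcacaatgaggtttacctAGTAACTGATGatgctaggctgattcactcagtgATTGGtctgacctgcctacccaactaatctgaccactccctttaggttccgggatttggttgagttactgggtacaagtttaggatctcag
H2-Aa: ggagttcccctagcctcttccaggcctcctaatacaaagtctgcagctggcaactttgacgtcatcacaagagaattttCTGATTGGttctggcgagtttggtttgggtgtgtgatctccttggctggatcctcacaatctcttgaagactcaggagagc
These lie at chr17:34305737-34305896, chr17:34153061-34153220 and chr17:34287794-34287953 (minus strand). H2-Eb1 and H2-DMb1 held the X box pattern followed by a Y box core. H2-Aa held the Y box alone with these letters. Over all 32851 windows and both strands, 37.4% held ATTGG, 4.10% held CTGATTGG, which contains it, 4.18% held the X box pattern, and 1.57% held both X box pattern and core. A match is a description of letters, and nothing about binding in these hearts was measured.

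**Figure D2:**
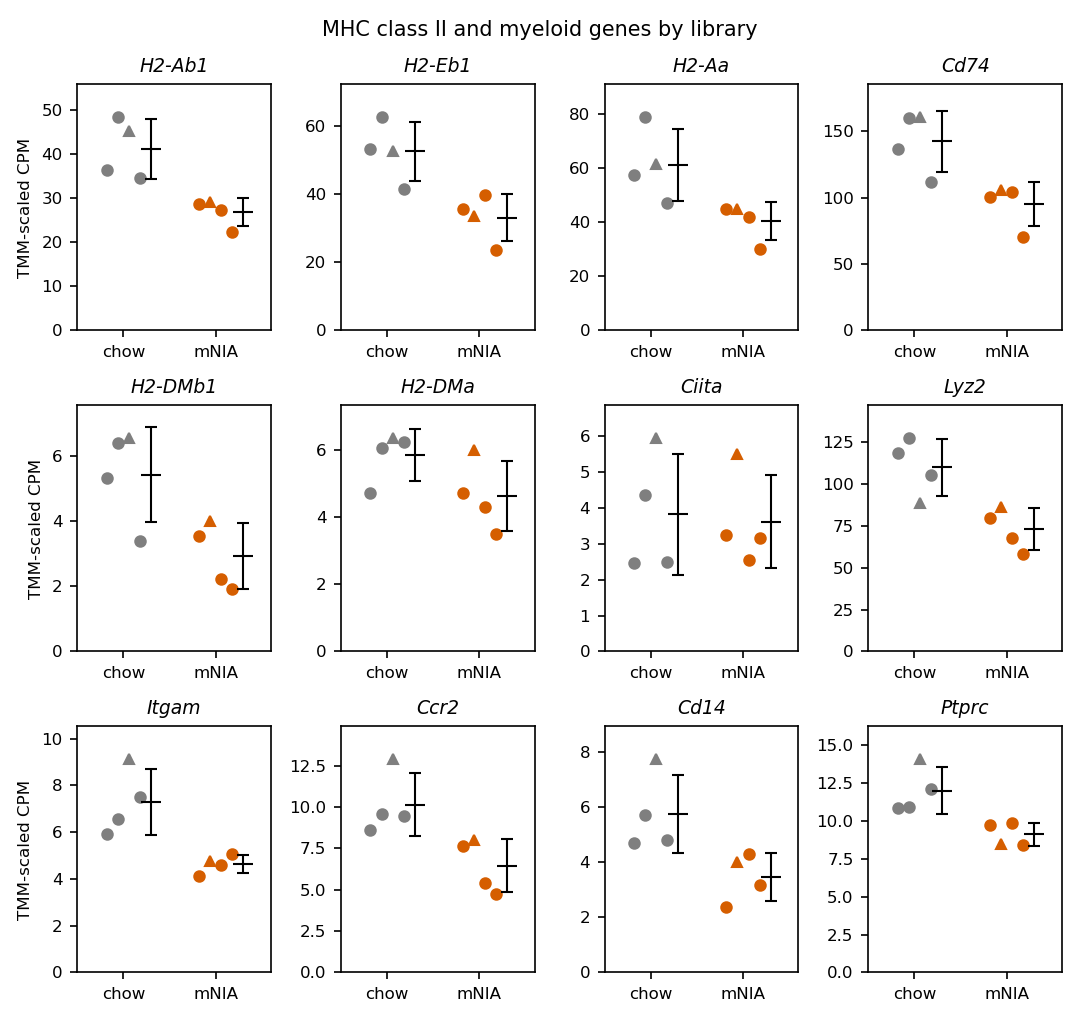
TMM-scaled CPM of 7 MHC class II genes and 5 myeloid genes in each library, with the mean and SD (n = 4) beside the points and triangles for chow 3 and mNIA 2. The 4 mNIA libraries lie below the 4 chow libraries for H2-Ab1, H2-Eb1, H2-Aa, Cd74 and the 5 myeloid genes, and overlap them for H2-DMb1, H2-DMa and Ciita. The myeloid genes shown are all ones without overlap, whereas only 5 of 24 tested macrophage and monocyte markers had no overlap.

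Macrophage and monocyte markers also had lower means in mNIA. Of 24 tested markers, 22 had a lower mean in mNIA and 5 had no overlap on the lower side (1.46% of all genes), with a median log2 fold change of -0.39 and of -0.45 without chow 3 and mNIA 2. Their summed level was 445 to 541 CPM in chow and 335 to 494 in mNIA. In bulk tissue, fewer cells of a type and less RNA per cell cannot be told apart. Markers of other non-muscle cells had lower means too. The median was -0.24 for 24 endothelial markers, 22 of them lower in mean, and it was -0.28 without chow 3 and mNIA 2, -0.03 without chow 3 alone and -0.55 without mNIA 2 alone. For 17 pericyte and smooth muscle markers, 11 of them lower in mean, it was -0.25, and -0.26 without the 2 libraries. Cardiomyocyte identity genes had a higher mean for 13 of 18 members, with a median of 0.16, and of 0.05 without the 2 libraries. In none of these 3 lists was a member free of overlap with all 8 libraries. The part of these cell type markers in the class II difference was not tested, nor was the macrophage list tested against the others.

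Lyz2, a lysozyme of monocytes and macrophages with a close copy in Lyz1, stood at 119, 128, 88.5 and 105 CPM in chow and at 79.8, 86.3, 67.9 and 58.2 in mNIA, a log2 fold change of -0.59 ± 0.19. Chow 3 was the lowest chow library and mNIA 2 the highest mNIA library, and the difference was -0.80 without them. Ccr2, the chemokine receptor that marks monocyte-derived cells, stood at 8.60, 9.59, 12.9 and 9.45 CPM in chow and at 7.66, 8.01, 5.40 and 4.75 in mNIA, with a log2 fold change of -0.67 ± 0.24. Itgam, the integrin chain CD11b, stood at 5.94, 6.56, 9.14 and 7.49 CPM against 4.12, 4.75, 4.61 and 5.07, with a log2 fold change of -0.64 ± 0.22. Neither gene overlapped between diets. Cd14, an endotoxin co-receptor, and Ptprc, the leukocyte phosphatase CD45, did not overlap either, with log2 fold changes of -0.71 ± 0.28 and -0.40 ± 0.18. Ccl2, the ligand of CCR2, overlapped through mNIA 2 at 4.75 CPM, while the other mNIA libraries at 1.18, 1.75 and 0.951 lay below the chow range of 3.28 to 4.77.

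Within the macrophage list, 5 genes known from self-renewing resident macrophages were singled out after their values were seen, because they lay near 0. Log2 fold changes were 0.11 ± 0.20 for the haemoglobin scavenger receptor Cd163, -0.06 ± 0.16 for the mannose receptor Mrc1, 0.06 ± 0.18 for Lyve1, -0.05 ± 0.25 for the folate receptor Folr2 and -0.13 ± 0.42 for Timd4. Mrc1 stood at 38.9, 33.6, 33.0 and 25.9 CPM in chow and at 32.4, 29.5, 35.0 and 29.3 in mNIA, so the libraries were interleaved, and the other 4 genes overlapped as well. The complement gene C1qb, made by most cardiac macrophages, stood at -0.48 ± 0.18. The contrast between the 5 genes and the rest of the list was set by choosing them on their values, and it was not tested. The T cell gene Cd3e was near the floor of detection, at or below 1.51 CPM.

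Class I and interferon genes depended on the libraries that stood apart. Of 21 tested genes of MHC class I and peptide loading, 18 had a lower mean in mNIA and 0 were free of overlap, with a median of -0.46. H2-K1, a class I heavy chain with near copies in the genome, stood at 189, 197, 418 and 184 CPM in chow and at 123, 234, 137 and 133 in mNIA. Chow 3 lay above every other library, and mNIA 2 lay above 3 of the 4 chow libraries. Without the 2, the H2-K1 difference was -0.55 and the list's median -0.39, with 12 members free of overlap on the lower side, where 11.3% of the 12778 genes tested in both fits were. Without chow 3 alone the list's median was -0.15. The 46 interferon-stimulated genes had a median of -0.27 with all libraries and of -0.19 without both chow 3 and mNIA 2, when 38 of the 46 means were lower. The median was 0.01 without chow 3 alone, -0.43 without mNIA 2 alone and -0.11 without mNIA 4 alone. Their one member free of overlap was Igtp, a GTPase induced by interferon gamma, with 26.2, 28.3, 28.0 and 31.9 CPM in chow and 25.9, 21.8, 23.5 and 13.8 in mNIA.

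Blood-borne transcripts were also lower in mean. Of 16 tested erythrocyte and platelet genes, 15 had a lower mean in mNIA, with a median of -0.57 and 0 free of overlap on the lower side. The median was -0.32 without chow 3, -0.93 without mNIA 2, and -0.68 without both, when 7 members were free of overlap on the lower side (11.3% of all genes). The haem synthesis enzyme Alas2 stood at 57.1, 68.6, 90.6 and 97.9 CPM in chow and at 42.4, 84.6, 28.8 and 58.8 in mNIA, where mNIA 2 lay inside the chow range. Summed levels of the list were 3645 to 8897 CPM in chow and 2239 to 6758 in mNIA. The globin members are near copies, and Hbb-bt and Hbb-b2 hold identical values in the table, so they are not separate measurements. The part of blood content in the leukocyte results was not tested.

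Collagen transcripts were lower in mean rather than higher, and collagen deposited in the tissue is not among these data. All 8 tested fibrillar collagens had a lower mean in mNIA (50.6% of all genes) and 2 had no overlap (lower side, 1.46% of all genes). Their median was -0.36, and it was -0.23 without chow 3 alone and -0.33 without chow 3 and mNIA 2, when 7 of 8 were lower. Col1a1, the main chain of type I collagen (chromosome 11, 94936224 to 94953043), stood at 130, 150, 167 and 124 CPM in chow and at 121, 123, 110 and 88.7 in mNIA. Chow 4 lay just above mNIA 2, so the diets barely separated, and the log2 fold change was -0.37 ± 0.18. Col5a1, a type V chain that seeds fibrils, stood at 60.6, 69.6, 63.2 and 64.7 CPM in chow and at 45.6, 49.5, 51.3 and 54.5 in mNIA, with a log2 fold change of -0.36 ± 0.14. Col3a1, the chain of type III collagen, stood at 270, 302, 251 and 218 CPM against 252, 212, 257 and 199. It overlapped, with a log2 fold change of -0.18 ± 0.19 and a 95% interval of -0.60 to 0.24.

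Other matrix genes followed in part. Of 24 tested collagen processing enzymes, 18 had a lower mean (50.6% of all genes) and 2 were free of overlap on the lower side (1.46% of all genes), the procollagen peptidase Adamts14 (-0.82 ± 0.34) and the lysyl hydroxylase Plod3 (-0.26 ± 0.15). The separation of Adamts14 was a near tie, with chow 1 at 2.253 CPM and mNIA 2 at 2.252. Col16a1, which links fibrils to the surrounding matrix, did not overlap either (-0.55 ± 0.23). Mfap5, a microfibril protein of fibroblasts, stood at 22.9, 19.5, 31.2 and 15.2 CPM in chow and at 12.4, 16.5, 10.8 and 11.3 in mNIA. Chow 4 lay below mNIA 2, and the difference was -0.81 ± 0.24. Fibroblast markers had a lower mean for 16 of 20 tested members, with summed levels of 3039 to 3397 CPM in chow and 2578 to 3412 in mNIA, and their part in the collagen values was not tested.

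Signals and inhibitors of the fibrotic pathway did not follow 1 direction. Tgfbr1, the type I receptor of TGF-beta, stood at 23.3, 24.4, 27.6 and 24.6 CPM in chow and at 30.6, 32.3, 29.9 and 31.4 in mNIA, where every library was higher (0.31 ± 0.13). Its ligand Tgfb1 differed by -0.15 ± 0.22, the matricellular protein Postn by -0.15 ± 0.16 and the growth factor Ctgf by 0.10 ± 0.20, all overlapping. Timp1, an inhibitor of matrix proteases, had a log2 fold change of -1.45 ± 0.60 that rested on chow 3 at 10.7 CPM and chow 2 at 5.21. Chow 1 and chow 4, at 2.05 and 1.96 CPM, lay within the mNIA range of 1.00 to 2.65, and without chow 3 and mNIA 2 the difference was -0.64.

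**Figure D3:**
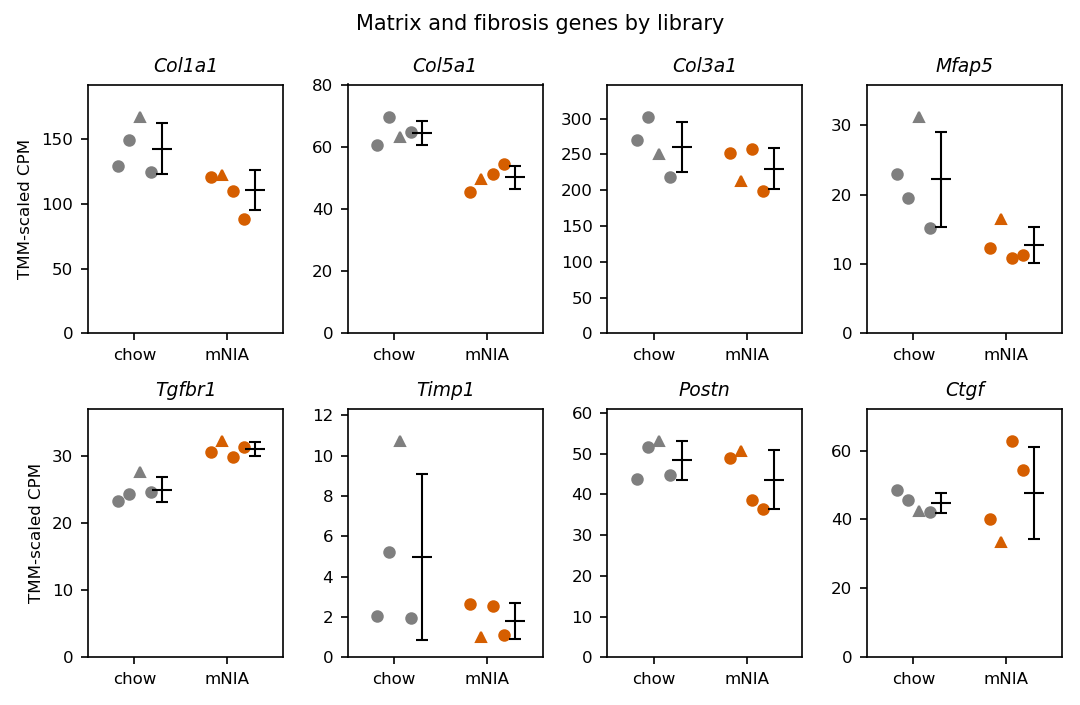
TMM-scaled CPM of 8 matrix and fibrosis genes in each library, with the mean and SD (n = 4) beside the points and triangles for chow 3 and mNIA 2. Col1a1 and Col5a1 are lower and Tgfbr1 higher in every mNIA library, whereas Col3a1, Postn and Ctgf overlap and the chow spread of Timp1 is wide.

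A muscle gene differed in the other direction. Acta1, skeletal alpha-actin, which the adult mouse ventricle keeps low and re-expresses under load (chromosome 8, minus strand), stood at 214, 196, 228 and 188 CPM in chow and at 357, 403, 394 and 255 in mNIA. All mNIA libraries were higher and chow 3 and mNIA 2 lay with their own diets. The means were 207 ± 17.8 and 352 ± 68.1 CPM, with a log2 fold change of 0.77 ± 0.21 and a 95% interval of 0.31 to 1.22, and of 0.73 without the 2 libraries. Other genes often re-expressed with it overlapped between diets. Nppa, atrial natriuretic peptide, differed by -0.01 ± 0.31, Nppb, the B-type peptide, by -0.08 ± 0.31 and the slow myosin Myh7 by 0.11 ± 0.26. Of the 16 tested cardiac stress genes, 8 had a higher mean and 8 a lower one, and Acta1 alone was free of overlap.

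Among the 4 tested markers of skeletal muscle all had a higher mean, Acta1 included, with the light chain Myl1 at 0.37 ± 0.16, slow troponin T Tnnt1 at 0.32 ± 0.16 and the creatine kinase Ckm at 0.13 ± 0.24. Myh2 and Myh4, the defining fast myosins, were not analysed here. Myoz2, a Z-disc protein that binds calcineurin, stood at 1077, 989, 564 and 957 CPM in chow and at 1472, 1159, 1262 and 1084 in mNIA. It did not overlap, although chow 1 and mNIA 4 lay side by side, and the log2 fold change was 0.47 ± 0.25. Myom2, an M-band protein, stood at 1022, 1139, 430 and 1225 CPM against 1752, 792, 1769 and 1986, and mNIA 2 broke the separation. Ano5, a membrane protein of muscle whose loss causes limb-girdle dystrophy, went the other way, with 13.7, 11.1, 7.75 and 8.02 CPM in chow and 5.30, 3.50, 4.77 and 4.28 in mNIA. No library overlapped, and the log2 fold change was -1.18 ± 0.26.

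Some lipid and retinoid genes differed in mean by larger ratios. Cyp26b1, which breaks down retinoic acid, stood at 4.30, 2.19, 5.96 and 2.85 CPM in chow and at 13.0, 21.0, 25.3 and 5.55 in mNIA. Only mNIA 4 lay inside the chow range, just below chow 3, and the log2 fold change was 2.09 ± 0.47 with a 95% interval of 1.06 to 3.14. Of the 13 tested retinoid and nuclear hormone genes, 6 had a higher and 7 a lower mean, with the retinal reductase Dhrs3 at 0.33 ± 0.19 and the receptor Rarb at 0.12 ± 0.19. Scd4, the cardiac stearoyl-CoA desaturase, stood at 20.7, 23.2, 10.9 and 12.7 CPM in chow and at 67.4, 23.5, 44.0 and 28.5 in mNIA. Chow 2 and mNIA 2 lay almost level, so the separation was narrow, and the log2 fold change was 1.27 ± 0.35. Its paralogs went the other way in mean, with Scd1 at -0.27 ± 0.15 and Scd2 at -0.31 ± 0.15.

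Cholesterol genes did not share a direction. Abca1, the efflux pump that loads HDL, stood at 27.2, 37.0, 32.2 and 34.8 CPM in chow and at 56.5, 35.5, 48.8 and 50.9 in mNIA. mNIA 2 lay below chow 2, and the difference was 0.55 ± 0.18. Mylip, a ubiquitin ligase induced by sterols through LXR, stood at 25.8, 23.04, 21.3 and 23.005 CPM against 28.0, 29.5, 26.5 and 30.1, higher in every mNIA library (0.29 ± 0.14). Mbtps2, the protease that frees the sterol-sensing SREBP factors, was higher without overlap at 0.72 ± 0.21. The 15 tested LXR targets, to which Abca1 and Mylip belong, had a median of -0.03, with 6 higher and 9 lower means.

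Medians of the fatty acid oxidation and citric acid cycle lists turned sign without chow 3 alone, but not without both libraries that stood apart. Of 28 tested fasting-responsive PPAR targets, 23 had a higher mean (49.4% of all genes). Their median was 0.19, and it was 0.04 without chow 3 alone. Pdk4, the kinase that shuts pyruvate out of the citric acid cycle in fasting, stood at 337, 368, 71.8 and 213 CPM in chow and at 989, 230, 674 and 438 in mNIA. It was higher in mNIA 1, 3 and 4 than in any chow library, and the difference was 1.23 ± 0.53 and, without chow 3 and mNIA 2, 1.18. Cpt1b, the gate of fatty acid entry into mitochondria, differed by -0.01 ± 0.21 and the glucose transporter Slc2a4 by -0.03 ± 0.27. Higher means were counted for 22 of 30 fatty acid oxidation enzymes and 28 of 31 genes of the citric acid cycle and pyruvate oxidation (49.4% of all genes), with medians of 0.20 and 0.23. Leaving out 1 library moved the first median between -0.02 (without chow 3) and 0.35 (without mNIA 2) and the second between -0.02 and 0.41, at the same libraries. Without both, the medians were 0.08 and 0.15, and 22 of the 31 citric acid cycle genes were higher in mean, 12 of them free of overlap on the higher side (12.4% of all genes). Respiratory chain genes went the other way in that setting. Of 37 complex I genes 31 were lower in mean, and of 38 genes of complexes III, IV and V 32 were. In each list 19 were free of overlap on the lower side (11.3% of all genes). Their medians were -0.18 and -0.21, against -0.03 and -0.05 with all 8 libraries. Gsta1, a glutathione transferase with a close copy in Gsta2, stood at 6.14, 4.20, 4.37 and 7.67 CPM in chow and at 1.77, 2.25, 2.86 and 2.06 in mNIA, a log2 fold change of -1.29 ± 0.30 without overlap.

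**Figure D4:**
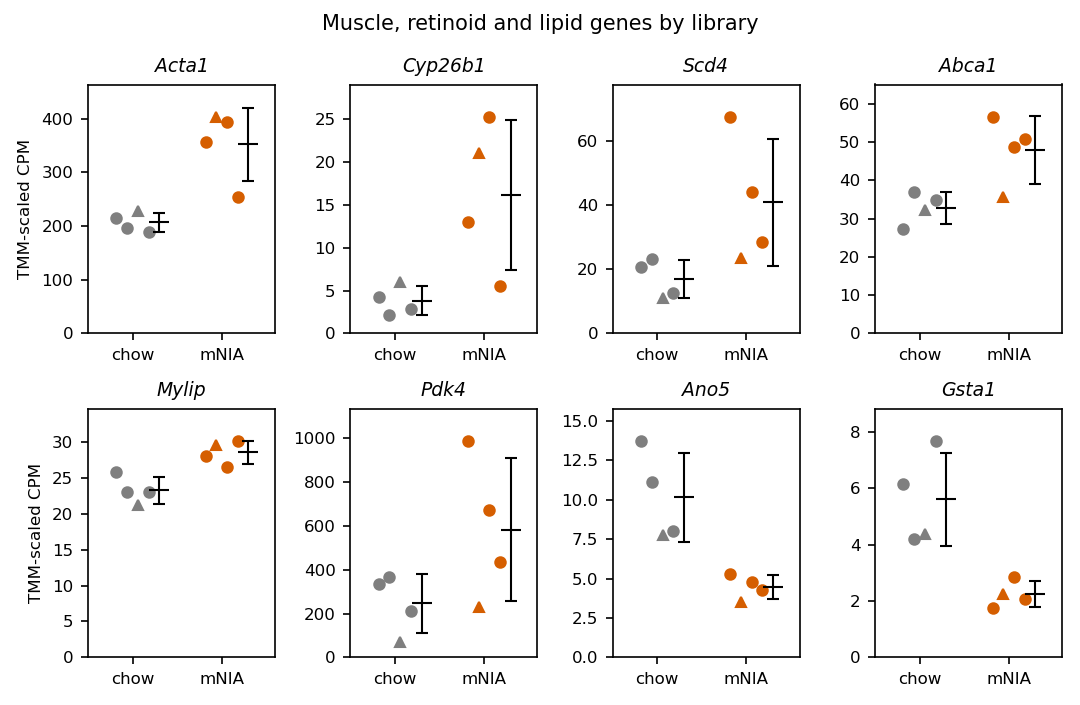
TMM-scaled CPM of 8 muscle, retinoid and lipid genes in each library, with the mean and SD (n = 4) beside the points and triangles for chow 3 and mNIA 2. Acta1, Scd4 and Mylip are higher and Ano5 and Gsta1 lower in every mNIA library, whereas single mNIA libraries fall inside the chow range for Cyp26b1, Abca1 and Pdk4.

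Chaperone genes had higher means for 22 of 25 tested members, with a median of 0.35 and 0 free of overlap on the higher side (0.685% of all genes). The median was 0.32 without chow 3 and mNIA 2, but 0.17 without chow 3 alone, 0.20 without mNIA 1 and 0.21 without mNIA 4. Hsph1, a large HSP70 partner, stood at 56.3, 52.0, 24.1 and 50.5 CPM in chow and at 108, 29.8, 70.1 and 83.0 in mNIA. Both low values were those of chow 3 and mNIA 2. The inducible HSP70 gene Hspa1a, which shares reads with its near copy Hspa1b, stood at 1.43, 4.04, 3.18 and 2.85 CPM in chow and at 2.94, 4.25, 2.54 and 25.2 in mNIA. Its mean difference thus came from mNIA 4, and it was 0.15 without that library against 1.63 with it. The same animal was the highest for the clock gene Per1 (142 CPM against 28.5 to 34.3 in the other mNIA libraries), for Tsc22d3, a glucocorticoid target (180 against 66.0 to 71.3), and for the nuclear receptor Nr4a3 (27.1 against 1.77 to 6.20).

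The remaining genes named for separation were spread over many functions. Higher in every mNIA library were the ubiquitin ligase Itch (31.3, 33.1, 24.3 and 31.4 CPM against 39.5, 36.0, 40.2 and 47.7) and Trim33, a ligase of SMAD4 (24.6, 24.9, 18.7 and 24.3 against 32.4, 28.5, 31.0 and 30.9). Also higher were the cap methylase Tgs1 (0.51 ± 0.15), the RNA helicase Ddx19a (0.46 ± 0.15), the scaffold Nedd9 (0.47 ± 0.18) and the uridine phosphorylase Upp1 (0.72 ± 0.27). Tceal8 (0.82 ± 0.24), Zbtb11 (0.60 ± 0.18), Zfp991 (0.90 ± 0.27), Zfp97 (0.43 ± 0.16), Ccdc115 (0.43 ± 0.16) and the channel subunit Cngb3 (1.44 ± 0.46) complete that side, and the Zfp genes belong to families of near copies. Lower in every mNIA library was Emb, a partner of monocarboxylate transporters, with 2.87, 2.86, 3.58 and 1.96 CPM in chow and 0.589, 1.75, 1.11 and 0.317 in mNIA. The mitochondrial glycine carrier Slc25a38 stood at 17.4, 18.2, 16.5 and 17.5 CPM in chow and at 11.8, 12.3, 13.2 and 13.2 in mNIA, with little spread within either diet. Other lower genes were Ift27 of intraflagellar transport (-0.79 ± 0.21), the phosphatase Ptpru (-0.94 ± 0.27), Zfp628 (-0.73 ± 0.22), the amylase Amy1 (-0.50 ± 0.15), the dynamin Dnm1 (-0.83 ± 0.26), Sdf2l1 of the endoplasmic reticulum (-0.83 ± 0.27) and the glutaminyl cyclase Qpctl (-0.79 ± 0.26).

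**Figure D5:**
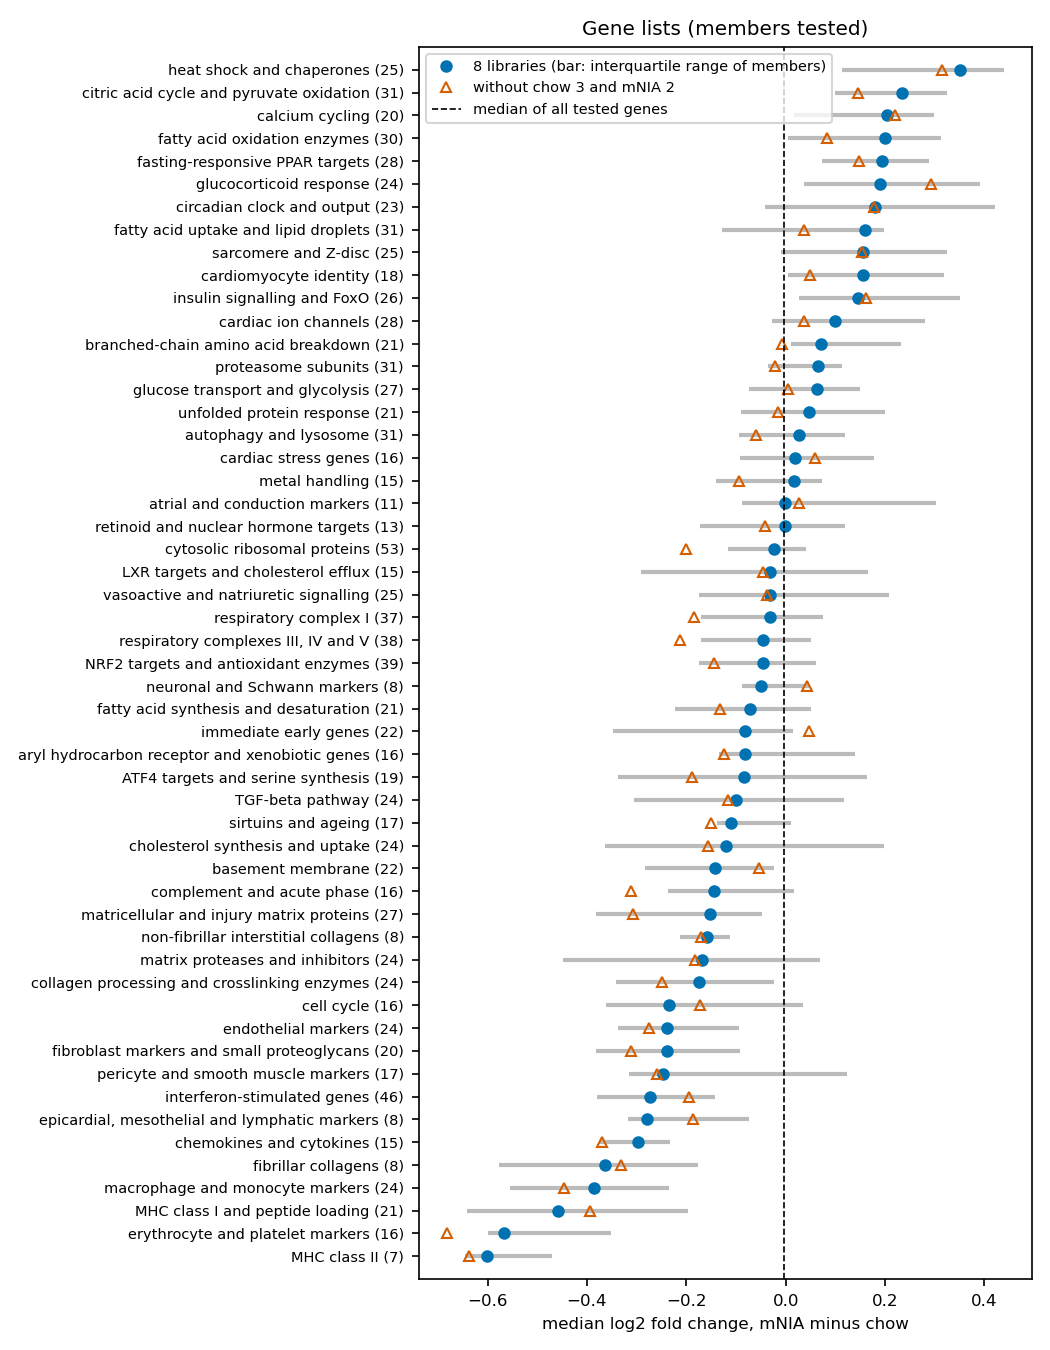
Median log2 fold change (mNIA minus chow) of each gene list with at least 5 tested members, with all 8 libraries (circles, with bars over the members' interquartile range) and without chow 3 and mNIA 2 (triangles). MHC class II (-0.60 and -0.64) and macrophage markers (-0.39 and -0.45) lie low in both, whereas ribosomal proteins (-0.02 and -0.20) move when the 2 libraries are left out.

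Log2 fold changes were higher at the median for longer genes. Across 12707 tested genes with a transcript model, the log2 fold change and the exon length had a Spearman rho of 0.17, and of 0.283 without chow 3 and mNIA 2, as a description over genes that share libraries. Among 5 bins of equal gene number, the bin of shortest genes had a median of -0.07 and the bin of longest 0.08, and without the 2 libraries -0.13 and 0.11. Set against the median of genes in the same length bins, the class II median was -0.58, the macrophage median -0.37, the fibrillar collagen median -0.41 and the chaperone median 0.32. Ribosomal protein genes, which are short, stood at -0.20 without the 2 libraries and at -0.09 against genes of their length. Within single libraries, the rho of exon length with a gene's log2 CPM less its median over the libraries was -0.163, -0.149, -0.0695 and -0.0267 in chow and 0.145, -0.226, 0.167 and 0.313 in mNIA. mNIA 2 had the lowest value of all 8 libraries, and it alone made the diets overlap. Every other mNIA library lay above every chow library, so the fit without chow 3 and mNIA 2 compared diets fully split in this measure. The part of gene length in the other results was not tested.

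Against the other formulas, 0 of 13381 genes passed for mNIA minus NIA or mNIA minus UW in the fit of all 16 libraries, with smallest adjusted p-values of 0.549 and 0.925 by edgeR's quasi-likelihood test. Unadjusted p was under 0.05 for 1192 genes (8.91%) and 132 genes (0.986%). These comparisons share the mNIA libraries with the one against chow. H2-Ab1 stood at 20.6, 46.5, 64.4 and 50.5 CPM in NIA and at 64.45, 47.5, 22.001 and 23.7 in UW, so both formulas spanned the values of mNIA and chow. Acta1 stood at 184, 149, 212 and 179 CPM in NIA, all below the mNIA libraries, and at 181, 387, 187 and 396 in UW, with 2 libraries at each level. Gsta1 stood at 5.03, 3.76, 5.86 and 11.4 CPM in NIA and at 1.61, 1.63, 3.12 and 2.23 in UW, so UW lay with mNIA and NIA with chow. Formula names follow the titles, and an exchange of formulas between titles would change what these differences compare. The Gsta1 difference was -1.40 ± 0.37 for mNIA minus NIA, and 0.05 ± 0.39 with a 95% interval of -0.76 to 0.86 for mNIA minus UW.

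A single gene passed for mNIA minus chow in that fit of 16 libraries, Phtf1os (log2 fold change 4.55 ± 0.72, adjusted p = 0.0451 by edgeR), 0.00747% of the 13381 genes, with 185 (1.38%) at an unadjusted p under 0.05. It is an antisense gene on chromosome 3 (103964536 to 103968317) with few reads, described after its values were seen. Expected counts summed to 1.86 over the chow libraries, nearly all in chow 4, and were 7.01, 15.5, 9.18 and 15.9 in the mNIA libraries. The fold rests on a chow group at the floor, and the gene was not tested in the 8-library fit because of its low counts. NIA 2 held 145 counts and the UW libraries 3.50 to 5.19, so reads in this gene were not particular to mNIA.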

How the data were processed

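RNA sequencing libraries were poly-A selected and strand-specific, from RNA with an integrity number above 7.0, read as 75-base single reads, per the labels' protocols. The authors deposited expected counts per gene symbol, made from reads with BWA, DESeq2 and build mm10 named per the submitters' processing notes. The counting tool and gene models are not given in the sources used here. In each library 17.8% to 23.3% of values were not whole, and these were rounded.

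Of 17737 genes, 12852 passed edgeR's filterByExpr. The 8 libraries were scaled by TMM and fitted in edgeR 4.0.16 (R 4.3.3) by a robust quasi-likelihood model with 1 mean per diet, and p-values were adjusted over all genes by the Benjamini-Hochberg method. Groups follow the titles. P-values measure the spread between single animals. The other 8 libraries entered only the fit of all 16. The code was tested on simulated data. Exon lengths came from GENCODE vM21. Quality weights are those of limma 3.58.1.

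Named genes were, per direction, the 15 with the smallest p among genes whose diets do not overlap and whose mean is at least 1 CPM, the 3 members of each of 57 lists with the smallest p, and 24 fixed genes. Members and lists were chosen with earlier results of these data known. Cd74, H2-DMb1, H2-DMa, Ciita, Cd14, Ptprc, Cd163, Mrc1, Timd4, Lyve1, Folr2, C1qb, H2-K1, Plod3, Rarb, Ckm, Hsph1, Per1, Tsc22d3, Phtf1os and the tissue markers Myl7, Adipoq and Cd3e fell outside this rule, and they were chosen after their values were seen. Alternatives were RLE and upper-quartile factors, DESeq2 1.42.0, limma-voom with quality weights, other filters, a block for the replicate number, the fit less the 10 most counted genes, all 16 libraries, and removal of libraries. List medians under these, and the analysis by gene length, were chosen after seeing the data. Values of 2 genes are not reported here.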

Additional observations from a re-analysis of the deposited data

Results flagged for a closer look

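In 85 genes, 170 groups of 4 libraries were checked for a library far from the other 3 of its diet, and 14 were marked. The cut marks about 1 in 20 groups of independent, normally spread values. These genes share libraries and were partly chosen on their values, so that rate is no measure for the 14. Chow 3 was the library in 5 of the 14: low for the thioesterase Acot2 (61.0 CPM), the lipid droplet protein Plin5 (40.0), Mbtps2 (8.15) and Trim33 (18.7), and high for elastin, Eln (56.7). mNIA 2 was low for Plin5 (82.6 CPM) and high for Nppa (213). mNIA 4 was high for Hspa1a (25.2 CPM) and Dnaja1 (174), both chaperone genes, and low for Cd74 (70.4) and Tgs1 (18.7). mNIA 1 was low for Ptpru (2.94 CPM) and high for Upp1 (4.12), and mNIA 3 was high for Cngb3 (4.93). Without mNIA 4 the Hspa1a difference was 0.15 and the Dnaja1 difference 0.21 on the log2 scale. Without chow 3 the Eln difference was -0.33, against -0.70 with it.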

How the results depend on the processing

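No gene passed an adjusted p of 0.05 under any alternative run on these diets, except Phtf1os, the 1 gene called with all 16 libraries. At an unadjusted p under 0.05 there were 322 genes in the reported fit, 338 by DESeq2, 1627 by limma-voom with quality weights, 168 with the replicate block, 1547 without mNIA 2 and 2158 without chow 3 and mNIA 2, where 196 genes had an adjusted p under 0.1. Deviations from the diet mean correlated at 0.362, -0.609, -0.501 and 0.234 between same-numbered libraries. The highest correlation between diets, 0.738, joined chow 3 and mNIA 2, the libraries that stood apart. Such values cannot tell whether the numbers pair the animals. The replicate block left the count of called genes at 0. Genes without overlap numbered 276, between 384 and 2509 when 1 library was left out (highest without mNIA 2), and 3046 of the same 12852 genes without chow 3 and mNIA 2. Full separation is easier to reach with fewer libraries per diet, so these counts do not compare directly. Other causes of the rise were not tested.

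Some genes and lists turned sign, and not all of them were near 0 in the reported fit. Atp2a2 stood at 0.29 ± 0.52 and the interferon median at -0.27, and both turned without chow 3. Cpt1b was 0.00895 with 16 libraries, 0.00711 with RLE factors, 0.00730 by DESeq2 and 0.000486 with a filter on CPM (more than 1 in 4 libraries). Nppa was 0.00271 with RLE factors, 0.00296 by DESeq2, 0.0585 by limma-voom, 0.00257 with no filter, 0.00419 with the CPM filter, 0.0345 with the replicate block and 0.0259 without the 2 libraries. Slc2a4 was 0.00449 with the replicate block. Leaving out 1 library gave -0.0370 to 0.562 for Atp2a2, -0.365 to 0.170 for Ciita, -0.101 to 0.0789 for Cpt1b, -0.0741 to 0.234 for Ctgf, -0.0635 to 0.264 for Myh7, -0.264 to 0.2997 for Nppa, -0.229 to 0.173 for Nppb, -0.0797 to 0.299 for Plin5, -0.227 to 0.0691 for Slc2a4, -0.363 to 0.0114 for Tgfb1 and -0.0728 to 0.411 for Ucp3. List medians ran from -0.430 to 0.0132 for interferon genes, from -0.150 to 0.00815 for complex I and from -0.284 to 0.0702 for ribosomal proteins. The causes were not tested. Among the 85 genes and 12 lists refitted under every alternative, no other turned sign. The remaining lists were refitted only with libraries left out, and some of their medians turned sign too. Without chow 3 the fatty acid oxidation median was -0.0171 and the citric acid cycle median -0.0198. Without mNIA 4 the glucocorticoid median was -0.148 and the clock median -0.0557. At these totals, differences in genes near 1 CPM rest on few reads.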
